A study of Sus scrofa with 6 samples.

Results

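Part of the pig genome assembly Sscrofa10.2 could not be assigned to a chromosome and is kept as unplaced scaffolds, whose names begin with GL or JH. The loci described here lay on such a scaffold, carried an Ensembl gene identifier but no gene symbol in the deposited table, and had a mean of at least 0.3 FPKM (mapped fragments divided by the length of the transcript and the size of the library) over the 6 liver libraries. In all, 565 loci met these conditions, out of 1329 loci of this kind at any level, 22571 loci with an Ensembl identifier, and 121055 assembled loci. The FPKM itself therefore chose the loci, and their levels are given as a description.

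An unplaced scaffold is a stretch of sequence that an assembler could build but not anchor, often because it is short, repeated or close to another copy of a gene. A gene model on such a scaffold is predicted from transcript and protein alignments, and it stays without a symbol until a counterpart in another species is assigned to it. In liver, whose hepatocytes secrete most plasma proteins and carry out drug and steroid oxidation, some very abundant transcripts belong to gene families with close copies, and a read that matches several copies can be counted at any of them.

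The livers came from 3 pigs of normal birth weight (Normal) and 3 pigs with intrauterine growth restriction (IUGR, low weight at birth for the litter), with 1 library per pig. All were PIC pigs, kept in the same environment and sampled at 150 days of age. All pigs of the study were kept off feed before slaughter and had earlier undergone an intravenous glucose tolerance test. According to the study's methods the pigs were males, each IUGR pig had a normal littermate in the experiment, and the sequenced pigs were drawn from that larger set, but the labels do not say which sequenced pigs were littermates. Growth restriction was natural and was defined by birth weight, so that it stands for no named cause of restriction. The question put to these livers was how low birth weight is reflected in the adult transcriptome.

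The libraries agreed closely. Over all 565 loci, Pearson's r of log2(FPKM + 1) across loci, which are not independent replicates, lay between 0.934 and 0.969 for every pair of libraries except IUGR 2 and IUGR 3, whose r was 0.991. Of 10 listed hepatocyte markers 9 had a locus, and the 7 estimated in every liver summed to 16534 to 31087 FPKM in normal and 21585 to 32341 FPKM in IUGR livers. ALB (albumin) was listed at 0 in all 6 livers and TF (transferrin) at 0 in Normal 1, IUGR 2 and IUGR 3, each with the status HIDATA, which the quantification program gives to a locus with too many fragments, so a 0 in this table can stand for a level that was not estimated. Of 8 stellate cell and fibroblast markers, COL3A1 had a failed estimate in Normal 1. The sum of the other 7 did not overlap between the groups, at 48.4 to 97.4 FPKM in normal and 102 to 129 FPKM in IUGR livers, but by gene this held for COL1A1, COL1A2 and PDGFRB, while DCN, LUM, ACTA2 and RGS5 overlapped. Summed neutrophil markers (5 of 6 genes) did not overlap either, at 2.79 to 7.83 FPKM in normal and 10.5 to 19.1 FPKM in IUGR livers, and by gene this held for 3 of them. Summed markers of cholangiocytes, endothelium, macrophages, T and NK cells, B and plasma cells, erythroid cells and dividing cells overlapped. In such tissue libraries, fewer cells of a type and less RNA per cell cannot be told apart.

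The loci were spread thinly. They occupied 469 scaffolds, 348 of them with GL names (402 loci) and 121 with JH names (163 loci), and 393 scaffolds held 1 such locus, while 76 held several, up to 6. The median length of a locus was 13459 bp, against 25359.5 bp for loci without a symbol on chromosomes and 10912 bp for loci with a symbol on scaffolds, and the range ran from 171 to 299582 bp. The table's description read only as an uncharacterized protein for 445 loci, was missing for 97 and named a product for 23. Gene ontology terms, which record what a predicted protein is thought to do, were attached to 368 loci. A reference list of gene names gave a symbol to 50 of the identifiers, among them PROS1 (protein S, an anticoagulant plasma protein), MYH11 (smooth muscle myosin heavy chain) and BRCA2 (a DNA repair protein).

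Most of the loci had modest levels. The median of the mean FPKM was 2.89, with quartiles of 1.02 and 8.69, against a median of 3.58 for loci without a symbol on chromosomes, 6.07 for loci with a symbol on scaffolds, 5.73 for loci with a symbol on chromosomes and 5.03 for all 14727 tested loci. Of the 565 loci, 426 averaged 1 FPKM or more, 123 averaged 10 FPKM or more, 16 averaged 100 FPKM or more and 1 exceeded 1000 FPKM. The spread within groups resembled that of the other classes, with a median SD of log2(FPKM + 1) of 0.263, against 0.272 over all tested loci.

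**Figure D1:**
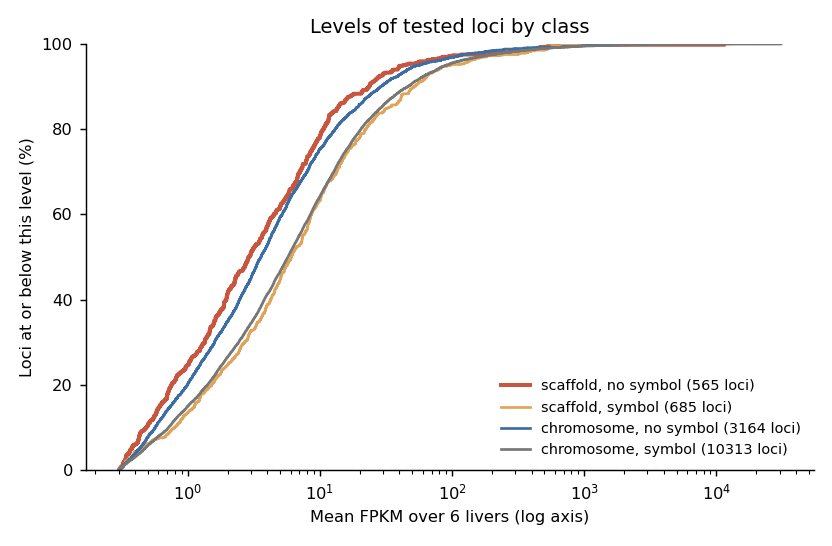
Cumulative share of tested loci (percent) against the mean FPKM over 6 livers (log axis), with a line for each of the 4 classes of locus. The line of the 565 scaffold loci without a symbol lies to the left of the others over most of its course, with a median of 2.89 FPKM.

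The list of abundant loci was headed by ENSSSCG00000021395 on GL896415.1 (6380 to 10941), which has neither a description nor an ontology term. Its FPKM was 11468, 9249 and 13709 in Normal 1 to 3 and 9358, 13012 and 12231 in IUGR 1 to 3, so the groups overlapped across their whole range. The log2 fold change, here always IUGR minus normal on log2(FPKM + 1), was 0.01 (SE 0.48). This locus alone made up 49.6% to 66.9% of the summed FPKM of the 565 loci, which in turn made up 3.43% to 5.15% of the sum over all loci with an identifier. An assembled locus without identifier next to it on the scaffold (1467 to 5141) read 406, 265 and 457 FPKM in normal and 262, 481 and 450 FPKM in IUGR livers.

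Several of the other abundant loci carried annotations of secreted liver products. ENSSSCG00000028870 (GL894992.1, 1290 to 8459), annotated as a serine-type endopeptidase inhibitor with a role in hyaluronan metabolism, read 887, 543 and 515 FPKM in normal and 698, 1135 and 1026 FPKM in IUGR livers. The groups overlapped, and the log2 fold change of 0.57 (SE 0.39) did not pass the test. ENSSSCG00000025463 (GL894927.1, 5510 to 32215), which the reference names PROS1, read 394, 229 and 218 FPKM in normal and 287, 406 and 393 FPKM in IUGR livers, again with overlap.

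Among the enzymes and housekeeping loci of this list, ENSSSCG00000025835 (hexosyl group transfer) had a mean of 379 ± 146 FPKM in normal and 460 ± 41.6 FPKM in IUGR livers (SD, n = 3). ENSSSCG00000028127, annotated as a carboxylic ester hydrolase of the membrane, had 411 ± 157 and 343 ± 21.0 FPKM in the same order. ENSSSCG00000006182, annotated to the ribosome, had 392 ± 136 and 537 ± 99.4 FPKM, and ENSSSCG00000027282, annotated only as catalytic, had 233 ± 57.9 and 317 ± 81.3 FPKM. ENSSSCG00000025390, without an ontology term, had 635 ± 262 and 688 ± 72.1 FPKM, and ENSSSCG00000028330, likewise without a term, had 422 ± 33.3 and 468 ± 103 FPKM. The groups of all these overlapped, and their adjusted p-values (limma) lay between 0.879 and 0.942.

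**Figure D2:**
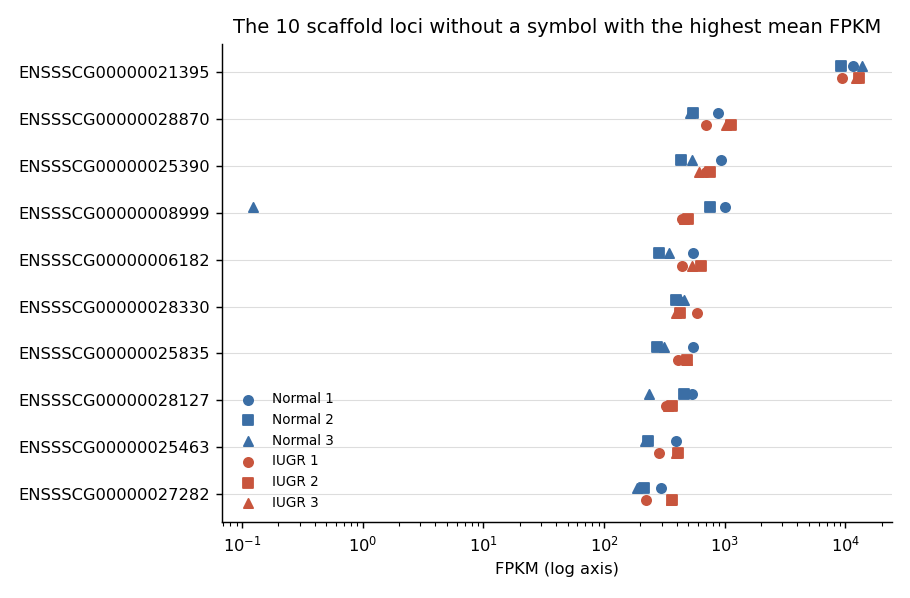
FPKM (log axis) in each of the 6 livers for the 10 scaffold loci without a symbol that had the highest mean FPKM, with normal pigs in blue and IUGR pigs in red. Apart from ENSSSCG00000008999 in Normal 3, at 0.122 FPKM, the 6 values of each locus lie close together.

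The exception in that plot was a fibrinogen locus. Fibrinogen, the plasma protein that thrombin turns into fibrin, is built of alpha, beta and gamma chains made in hepatocytes. ENSSSCG00000008999 (GL893846.2, 903 to 9098), annotated to the fibrinogen complex, read 995 and 750 FPKM in Normal 1 and Normal 2, only 0.122 FPKM in Normal 3, and 442, 498 and 456 FPKM in IUGR 1 to 3. All 6 estimates had the status OK. Normal 3 stood apart from the other livers, which lay between 442 and 995 FPKM. The adjacent locus on the scaffold, ENSSSCG00000024929 (19374 to 25157), described as the fibrinogen alpha chain, read 460, 185 and 234 FPKM in normal and 193, 302 and 272 FPKM in IUGR livers, with Normal 3 inside the range of the others. On chromosome 8, FGB, the beta chain, read 1651, 840 and 1081 FPKM in Normal 1 to 3, and ENSSSCG00000024314, also annotated to the complex, read 1735, 969 and 1290 FPKM. The near absence from Normal 3 was thus seen at 1 locus and at none of the other abundant fibrinogen loci. The log2 fold change of ENSSSCG00000008999 was 2.30 (SE 1.82, adjusted p = 0.881), although its group means were higher in normal (582 FPKM) than in IUGR livers (465 FPKM), because the log scale weights the low value in Normal 3.

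IUGR and normal livers were then compared with limma over all 14727 loci with an identifier and a mean of at least 0.3 FPKM, with a call at a Benjamini-Hochberg adjusted p under 0.05. Across all tested loci 1 was called higher in IUGR (0.00679%) and 2 were called lower (0.0136%). All 3 calls (0.0204%) were scaffold loci without a symbol, which is 0.531% of the 565 loci. Of these, ENSSSCG00000027115 rested on failed estimates in the normal livers and met the level limit through IUGR livers only. ENSSSCG00000014916 met it through normal livers only, so these shares are given as a description. At an unadjusted p under 0.05, 32 of the 565 loci were higher in IUGR (5.66%, against 6% of all tested loci) and 9 were lower (1.59%, against 0.794%). This split depended on scaling, since with libraries scaled to the same median 23 were higher and 26 lower (4.071% and 4.602%, against 4.998% and 3.429% of all tested loci), with the same quantiles 25 and 32, and with the share of mapped reads as a covariate 17 and 32. It also depended on Normal 1, without which 139 were higher and 5 lower (24.6% and 0.885%, against 28.4% and 0.869%). Every IUGR value lay above every normal value at 44 loci (7.79%, against 8.39%) and below at 15 loci (2.65%, against 1.22%). The median log2 fold change was 0.12 over the 565 loci and 0.15 over all tested loci, so that values near 0.15 mark a locus that followed the table as a whole. With libraries scaled to the same median, these medians were -0.03 and 0.00.

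**Figure D3:**
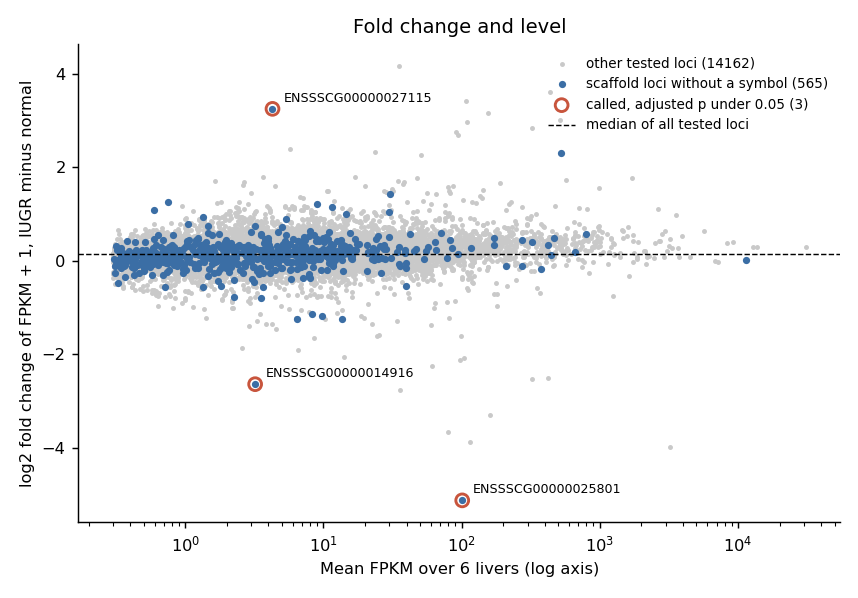
Log2 fold change of FPKM + 1 (IUGR minus normal) against the mean FPKM over 6 livers (log axis), with the 565 scaffold loci without a symbol in blue over the other tested loci in grey, and the 3 called loci circled. The dashed line is the median of all tested loci, 0.15, and the called loci stand at 3.25, -2.64 and -5.13.

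The largest difference among the 565 loci belonged to ENSSSCG00000025801 on GL896193.2 (13415 to 15623). Its ontology terms are heme binding, iron binding and oxidoreductase activity on paired donors with molecular oxygen, terms that cytochrome P450 enzymes carry. It read 123, 203 and 253 FPKM in Normal 1 to 3 and 23.7, 1.58 and 1.35 FPKM in IUGR 1 to 3. The groups were well separated, with IUGR 1 the closest to normal. The means were 193 ± 65.7 and 8.89 ± 12.9 FPKM (SD, n = 3), a level 21.7-fold lower in IUGR, and the log2 fold change was -5.13 (SE 0.69, limma, adjusted p = 0.0339). The adjusted p was 0.118 without Normal 3 and 0.0711 without Normal 1, and it ranged from 2.72e-10 to 0.582 over the alternatives other than the replicate block (2.34e-30, with numbers that do not pair the pigs), always with a lower level in IUGR. IUGR 1 set most of the IUGR mean. Without it the level was 132-fold lower and the log2 fold change -6.24, and with the share of mapped reads as a covariate the log2 fold change was -3.56.

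On the rest of that scaffold IUGR 2 and IUGR 3 were again the lowest pigs. The table held 9 further assembled loci on GL896193.2, none with an identifier, lying between 5035 and 13139. All 9 had a negative log2 fold change, from -4.86 to -2.70, and at 7 of them every IUGR value lay below every normal value. Of the 7810 loci without identifier on unplaced scaffolds with a mean of at least 0.3 FPKM, a level that all 9 reached, 8.80% showed such a separation. At the most abundant (8303 to 8431) the values were 90.7, 646 and 410 FPKM in normal and 111, 9.31 and 4.63 FPKM in IUGR livers, so that Normal 2 was the highest and IUGR 1 stood above Normal 1. The neighbours share the scaffold and the libraries with the annotated locus and are no independent evidence for it.

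The table held 115 loci with that paired-donor oxidoreductase term, of which 86 were tested. ENSSSCG00000025801 was the only one called, and the median log2 fold change of the 86 was 0.17. Among them 5 were scaffold loci without a symbol. ENSSSCG00000023138 (GL896190.1, 205 to 4420) read 263, 187 and 175 FPKM in normal and 89.5, 280 and 266 FPKM in IUGR livers, with IUGR 1 lowest and the groups overlapping. The other 3 had means of 0.348 to 0.768 FPKM. On chromosome 14, ENSSSCG00000024537, named here after its values were seen, had the next lowest log2 fold change of the 86 (-3.88, adjusted p = 0.115), with 162, 156 and 298 FPKM in normal and 61.4, 6.57 and 4.09 FPKM in IUGR livers. Its IUGR pigs took the same order, with IUGR 1 the highest.

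**Figure D4:**
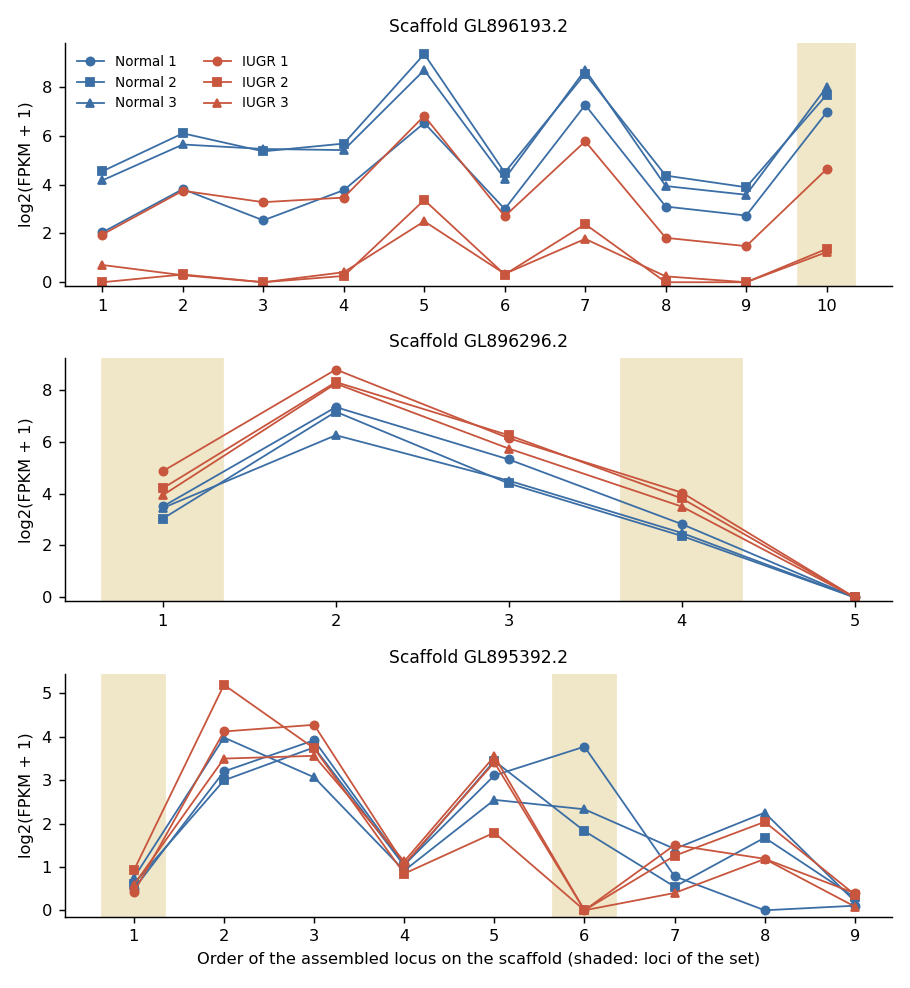
Log2(FPKM + 1) of every assembled locus in its order along 3 scaffolds, with a line for each pig (normal in blue, IUGR in red) and the scaffold loci without a symbol that reached 0.3 FPKM shaded. On GL896193.2 the lines of IUGR 2 and IUGR 3 run lowest throughout, on GL896296.2 all IUGR lines lie above the normal lines at 4 loci, and on GL895392.2 the groups separate at 1 locus only.

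The other locus that was lower in IUGR was ENSSSCG00000014916 on GL895392.2 (49319 to 55650), an uncharacterized protein without an ontology term. It read 12.7, 2.55 and 4.02 FPKM in Normal 1 to 3 and was listed at 0 in all 3 IUGR livers, each with the status OK. It met the level limit through normal livers only, so the rule itself used those values. The log2 fold change was -2.64 (SE 0.36, limma, adjusted p = 0.0339), and the adjusted p was 0.0685 without Normal 3 and ranged from 5.68e-05 to 0.582 over the alternatives other than the replicate block (3.21e-29). With the share of mapped reads as a covariate it was 0.0507. Neither of the loci called lower passed the test when libraries were scaled to the same median or the same quantiles. Nor did either pass without the filter on level, without a variance trend or with robust variances. With a pseudocount of 0.1, ENSSSCG00000014916 was called and ENSSSCG00000025801 was not. Of the 8 other loci on the scaffold, at none were the groups separated, and their log2 fold changes ran from -0.12 to 0.88. The other locus of the set there, ENSSSCG00000023965, read 0.403, 0.527 and 0.682 FPKM in normal and 0.331, 0.893 and 0.503 FPKM in IUGR livers.

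The locus called higher in IUGR rested on failed estimates. ENSSSCG00000027115 on GL896504.1 (15939 to 55463), whose terms place it in the transcription factor complex TFIID, a part of the machinery that starts transcription, read 7.41, 9.19 and 9.08 FPKM in IUGR 1 to 3. In all 3 normal livers it was listed at 0 with the status FAIL, which the quantification program gives when it could not estimate a locus. Its fitted log2 fold change of 3.25 (adjusted p = 2.38e-06) therefore compares measured with missing values, and without the failed estimates no comparison remained. Its 4 neighbours without identifier had log2 fold changes from -0.17 to 0.06.

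A status other than OK was found at 5 of the 565 loci (0.885%), against 33 of all 14727 tested loci (0.224%). The other 4 shared the interval 93888 to 287523 of JH118638.1 and failed together in IUGR 1. ENSSSCG00000028470, annotated to the synthesis of selenocysteinyl-tRNA, read 15.3, 12.3 and 19.6 FPKM in normal livers and 16.9 and 17.3 FPKM in IUGR 2 and IUGR 3. ENSSSCG00000025520 read 12.3, 12.2 and 9.86 FPKM in normal livers and 12.8 and 10.98 FPKM in IUGR 2 and IUGR 3. ENSSSCG00000028581, which the reference names ZCCHC4, a zinc finger methyltransferase, stood on both remaining loci, with 2.43 and 1.99 FPKM at the lower and 5.23 and 4.84 FPKM at the higher of them in IUGR 2 and IUGR 3. With the zeros of IUGR 1 taken at face value the log2 fold changes of these 4 loci ran from -1.26 to -0.54, and without IUGR 1 all 4 were positive, from 0.02 to 0.29. The next locus on the scaffold, ENSSSCG00000025902 (ANAPC4, a subunit of the anaphase-promoting complex), lay outside the interval, was estimated in every liver and read 4.70 FPKM in IUGR 1, between 4.35 and 7.94 FPKM in the other livers.

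**Figure D5:**
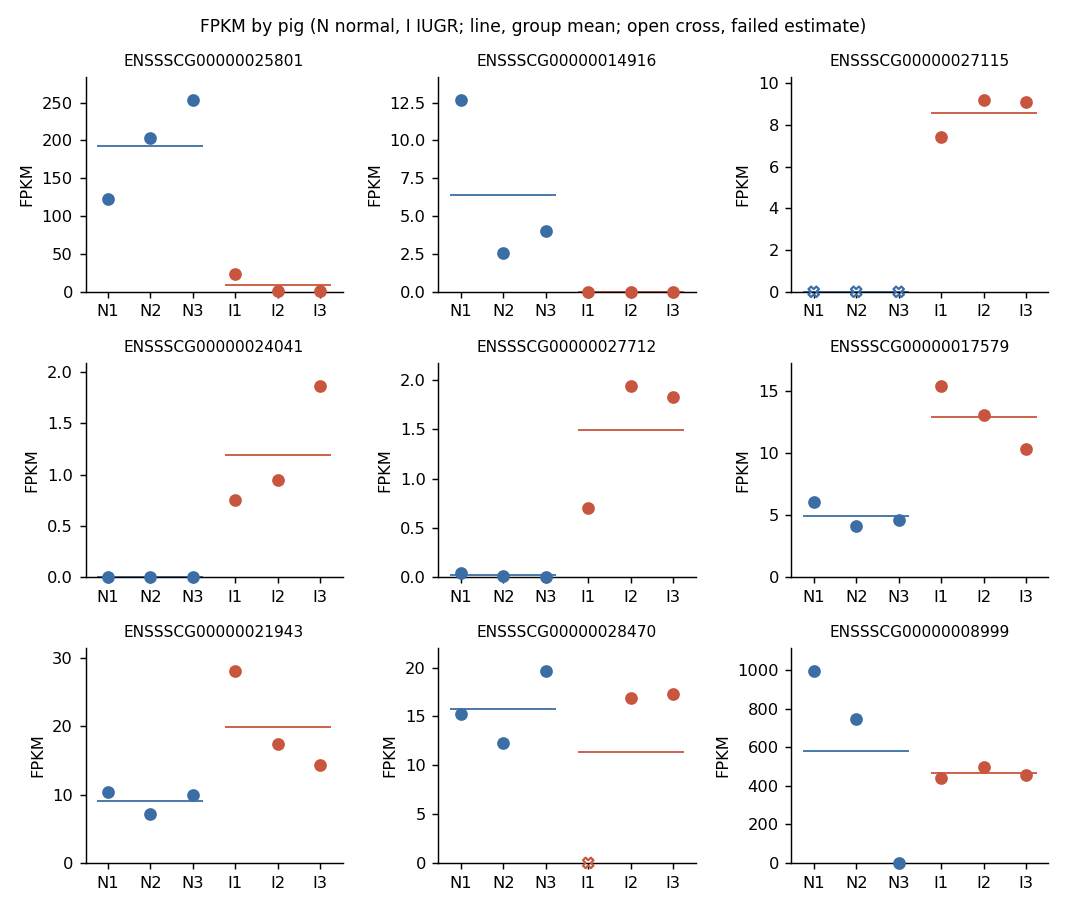
FPKM of 9 loci in each pig (N1 to N3 normal in blue, I1 to I3 IUGR in red), with a line at each group mean and an open cross for a failed estimate. ENSSSCG00000025801 and ENSSSCG00000014916 are high only in normal livers, while the zeros of ENSSSCG00000027115 and the zero of ENSSSCG00000028470 are failed estimates.

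A pair of loci came close to the threshold in the other direction. ENSSSCG00000027712 (GL895007.2, 13377 to 21057), annotated as a GTPase of microtubules, the terms that tubulins carry, read 0.0428, 0.0153 and 0 FPKM in normal and 0.704, 1.94 and 1.83 FPKM in IUGR livers. Its log2 fold change was 1.25 (SE 0.19, limma, adjusted p = 0.0505). ENSSSCG00000024041 (GL893966.2, 21 to 27897), without an ontology term, was listed at 0 in all normal livers, with the status OK, and read 0.752, 0.951 and 1.86 FPKM in IUGR livers. Its log2 fold change was 1.10 (SE 0.17, adjusted p = 0.0505). The groups did not overlap at either locus, but both met the level limit through IUGR livers only, so the rule itself used those values. Both passed the threshold when loci with failed estimates were left out of the fit (adjusted p = 0.0315 for each). In all, 9 of 16 alternatives other than the replicate block called each of them, with limma adjusted p-values of up to 0.540 and 0.521. Neither passed with libraries scaled to the same median or quantiles, without the filter on level or without a variance trend. Once the share of mapped reads was added as a covariate, the adjusted p-values were 0.229 and 0.262. On GL895007.2, 3 of the 10 loci without identifier also had every IUGR value above every normal value. Of loci without identifier on unplaced scaffolds with a mean of at least 0.3 FPKM, 4.93% did. Some of the 10 lay below that level, among them the separated locus at 24274 to 24598, so the shares are not on the same footing. The adjacent locus (21653 to 21820), also separated, had 0, 0.687 and 0.656 FPKM in normal and 2.38, 10.9 and 5.75 FPKM in IUGR livers.

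On GL896296.2 several neighbouring loci were higher in every IUGR liver. ENSSSCG00000021943 (4933 to 5477), annotated as a collagen trimer and structural constituent of the extracellular matrix, read 10.3, 7.19 and 9.88 FPKM in normal and 28.1, 17.4 and 14.3 FPKM in IUGR livers. ENSSSCG00000017579 (15139 to 19536), without an ontology term, read 6.07, 4.16 and 4.59 FPKM in normal and 15.4, 13.0 and 10.3 FPKM in IUGR livers. The log2 fold changes were 1.01 (SE 0.28) and 1.22 (SE 0.24), with adjusted p-values of 0.392 and 0.164, so neither passed the test. The loci without identifier between them read 74.8 to 159 and 19.9 to 38.7 FPKM in normal, and 299 to 436 and 52.0 to 74.7 FPKM in IUGR livers. The last locus of this scaffold, ENSSSCG00000030313, was listed at 0 in every liver. The sum of the 7 stellate cell and fibroblast markers estimated in every liver, which include the collagen genes COL1A1 and COL1A2, also separated the groups (48.4 to 97.4 against 102 to 129 FPKM), and their part in this result was not tested.

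The other loci with the lowest p-values among those higher in IUGR had adjusted p-values from 0.223 to 0.529. ENSSSCG00000023922, annotated as a hydrolase of O-glycosyl bonds, read 4.40, 2.59 and 3.57 FPKM in normal and 6.20, 8.09 and 7.53 FPKM in IUGR livers. ENSSSCG00000016178 (JH118558.1, 22943 to 34814), described as insulin-like growth factor-binding protein 5, which binds the growth factors IGF1 and IGF2, read 1.17, 0.942 and 0.729 FPKM in normal and 1.92, 2.51 and 1.48 FPKM in IUGR livers. The same scaffold carried the related IGFBP2, a locus with a symbol, at 77.2, 31.8 and 123 FPKM in normal and 118, 272 and 233 FPKM in IUGR livers, where the groups overlapped. ENSSSCG00000021253 had means of 0.627 ± 0.408 and 2.07 ± 0.469 FPKM, and ENSSSCG00000021423, annotated to regulate transcription, had 2.16 ± 0.517 and 3.83 ± 0.297 FPKM (SD, n = 3). ENSSSCG00000027306 (GL896319.1) read 0.386, 0.482 and 1.91 FPKM in normal and 2.097, 2.01 and 1.95 FPKM in IUGR livers, so that Normal 3 lay next to the IUGR values. The groups did not overlap at any of these 5 loci.

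Among those lower in IUGR, the lowest p after the called loci belonged to ENSSSCG00000029993 (GL896259.2, 38773 to 53642), an uncharacterized protein that read 0.848, 1.22 and 1.06 FPKM in normal and 0.327, 0.358 and 0.437 FPKM in IUGR livers (log2 fold change -0.57, SE 0.14, adjusted p = 0.289). A further locus in the same interval carried the same identifier and read 0.196, 0.630 and 0.271 FPKM in normal and 0.298, 0.197 and 0.409 FPKM in IUGR livers, with full overlap. How reads were divided between the loci of that interval cannot be told apart from a difference in level. ENSSSCG00000023928, described as SUV39H2, a histone methyltransferase that marks silent chromatin, read 2.32, 2.74 and 1.40 FPKM in normal and 1.07, 1.39 and 1.40 FPKM in IUGR livers, with Normal 3 only just above the highest IUGR value. ENSSSCG00000023822 had 8.69, 15.8 and 8.46 FPKM in normal and 11.7, 2.90 and 1.95 FPKM in IUGR livers, where IUGR 1 lay among the normal values. Its log2 fold change of -1.13 was -1.77 without IUGR 1 (adjusted p = 0.00474) and -0.32 once the share of mapped reads was a covariate. ENSSSCG00000023256 had 15.3, 8.42 and 3.66 FPKM in normal and 0.284, 5.47 and 5.40 FPKM in IUGR livers, and its log2 fold change of -1.25 became -2.60 (adjusted p = 0.0224) with that covariate. ENSSSCG00000024422 overlapped too, with 1.68 to 5.02 FPKM in normal and 0.642 to 1.77 FPKM in IUGR livers. ENSSSCG00000029224, ENSSSCG00000026242 and ENSSSCG00000024749 did not overlap but had means of at most 0.692 FPKM. The adjusted p-values of these last 7 loci ranged from 0.579 to 0.758.

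Of the loci that could be placed in a group by their description or ontology terms, cytoskeleton and extracellular matrix held 26, with 18 positive and 8 negative log2 fold changes and a median of 0.25, against 0.15 over all tested loci. Of all tested loci, 79.2% had a positive log2 fold change, and the counts by sign given for each group stand beside that share. At 5 of the 26 loci every IUGR value lay above every normal value (8.39% of all tested loci) and at none below (1.22%). At 4 the unadjusted p was under 0.05 with a higher level in IUGR (6% of all tested loci), and none was called. ENSSSCG00000027712, which is in both counts, met the level limit through IUGR livers only, so they are given as a description. Besides ENSSSCG00000027712 and ENSSSCG00000021943, these 4 were ENSSSCG00000000146 (MYH11), with 2.69, 2.096 and 3.22 FPKM in normal and 4.47, 4.74 and 3.90 FPKM in IUGR livers, and ENSSSCG00000029399, a myosin component, with 6.37, 5.32 and 7.07 FPKM in normal and 9.58, 10.7 and 8.09 FPKM in IUGR livers. In this group 4 of the 26 loci carry the identifier ENSSSCG00000020961 in 1 interval of GL894428.1, and all 4 had negative log2 fold changes, from -0.25 to -0.03. Among the stellate cell and fibroblast markers, ACTA2 (smooth muscle actin) overlapped, with 15.1, 5.49 and 6.22 FPKM in normal and 17.6, 13.9 and 10.8 FPKM in IUGR livers, while the sum of the 7 estimated in every liver did not, and their part in these values was not tested.

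Loci for complement, coagulation and protease inhibitors numbered 5, with a median mean level of 274 FPKM and a highest of 801 FPKM. Besides the abundant loci above, this group held ENSSSCG00000029257, described as an acrosin inhibitor, with 1.23, 0.958 and 1.14 FPKM in normal and 1.64, 1.74 and 1.39 FPKM in IUGR livers (log2 fold change 0.30, adjusted p = 0.810), where the groups did not overlap. It also held ENSSSCG00000025987, a cysteine-type endopeptidase inhibitor, which was listed at 0 in Normal 1 and read 0.467 to 0.714 FPKM in the other livers.

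Drug-metabolizing enzymes numbered 7, with 4 positive and 3 negative log2 fold changes, and ENSSSCG00000025801 was the only locus called among them. ENSSSCG00000021557 (GL892962.1, 15128 to 17110), described as a sulfotransferase and named SULT1A3 in the reference, an enzyme type that adds sulfate to phenols and amines, read 28.8, 8.31 and 24.0 FPKM in normal and 52.8, 35.1 and 30.0 FPKM in IUGR livers. The groups did not overlap, though Normal 1 and IUGR 3 lay close together, and the log2 fold change of 1.04 (SE 0.40) had an adjusted p of 0.612. ENSSSCG00000016503, with heme-binding monooxygenase terms, had means of 0.592 ± 0.213 and 0.943 ± 0.119 FPKM, and the sulfotransferase-type locus ENSSSCG00000004111 had 0.709 ± 0.550 and 0.561 ± 0.312 FPKM (SD, n = 3).

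Carriers and transporters numbered 25, and the median of their log2 fold changes was 0.04. None was called, and none had an unadjusted p under 0.05. The most abundant, ENSSSCG00000013057, a transmembrane transporter, read 66.6, 59.4 and 43.1 FPKM in normal and 75.7, 92.1 and 87.3 FPKM in IUGR livers, without overlap (log2 fold change 0.60, adjusted p = 0.765). ENSSSCG00000024539, a lipid transporter, read 0.486, 0.628 and 0.676 FPKM in normal and 0.298, 0.337 and 0.355 FPKM in IUGR livers. ENSSSCG00000029958, annotated to protein import into the peroxisome membrane, read 1.21, 1.02 and 1.17 FPKM in normal and 0.780, 0.805 and 0.786 FPKM in IUGR livers. Both were separated in the lower direction with adjusted p-values of 0.771 and 0.832. ENSSSCG00000029591, an ion channel with terms for temperature sensing, stood out in Normal 2 at 1.96 FPKM, against 0.176 to 0.396 FPKM in the other livers.

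Lipid loci numbered 9, of which 7 had positive and 2 had negative log2 fold changes, with a median of 0.13. ENSSSCG00000026255, annotated as a phosphatidylinositol phospholipase C, a signaling enzyme that cleaves a membrane lipid, read 11.97, 2.95 and 6.49 FPKM in normal and 8.53, 20.8 and 18.9 FPKM in IUGR livers. Its log2 fold change of 1.14 (SE 0.41) became 0.36 once the share of mapped reads was a covariate. ENSSSCG00000023735, with terms for breakdown of sphingomyelin, overlapped at 0.121 to 2.12 FPKM in normal and 0.982 to 1.88 FPKM in IUGR livers. ENSSSCG00000029337, a methyltransferase of ubiquinone synthesis, had means of 1.98 ± 0.869 and 2.58 ± 0.596 FPKM (SD, n = 3).

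Amino acid, sugar and energy metabolism held 12 loci with a median of 0.14 for the log2 fold change, and 1 locus at an unadjusted p under 0.05. ENSSSCG00000030525, with gamma-glutamylcyclotransferase terms of glutathione metabolism, had 10.6 ± 2.61 and 14.4 ± 2.44 FPKM, ENSSSCG00000025076, a glycosyl hydrolase, had 5.51 ± 2.12 and 7.54 ± 1.25 FPKM, and ENSSSCG00000020957, a sialyltransferase of the Golgi, had 0.584 ± 0.0424 and 0.421 ± 0.0919 FPKM (SD, n = 3). Mitochondrial terms were rare, with 2 loci. They were ENSSSCG00000022271, with 13.2, 6.36 and 6.98 FPKM in normal and 6.23 to 7.72 FPKM in IUGR livers, and ENSSSCG00000026418, described as cathepsin D, a lysosomal protease, with 14.8 to 32.5 and 21.5 to 26.1 FPKM. None of these loci was called.

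Transcription factors and zinc fingers numbered 26, with 19 positive and 7 negative log2 fold changes and a median of 0.12. The locus ENSSSCG00000027115 with failed estimates was the only one called, and 4 including it had an unadjusted p under 0.05, all higher in IUGR (6% of all tested loci). One of the others, ENSSSCG00000026992, annotated to transcription elongation, read 0.897, 0.0282 and 0.570 FPKM in normal and 0.857, 1.43 and 1.10 FPKM in IUGR livers, with overlap. Histone and chromatin loci numbered 10, with a median of -0.02 and SUV39H2 as the only locus at an unadjusted p under 0.05. ENSSSCG00000005404, a condensin component that packs chromosomes for division, read 0.528, 0.482 and 0.291 FPKM in normal and 0.597, 0.835 and 0.766 FPKM in IUGR livers, without overlap. ENSSSCG00000020811, also a condensin component, overlapped at 0.292 to 0.509 and 0.316 to 1.24 FPKM, and ENSSSCG00000028785, a locus of meiotic recombination, at 2.27 to 4.55 and 4.26 to 4.91 FPKM.

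Ribosome and translation loci numbered 12, with 7 positive and 5 negative log2 fold changes and a median of 0.09. ENSSSCG00000024398, a protein of the large ribosomal subunit, read 0.378, 0.275 and 0.306 FPKM in normal and 0.451, 0.697 and 0.527 FPKM in IUGR livers, without overlap. ENSSSCG00000030021 and ENSSSCG00000029802 overlapped, with means of 1.04 ± 0.409 against 1.56 ± 0.313 FPKM and 8.70 ± 3.96 against 12.2 ± 1.68 FPKM (SD, n = 3). Ubiquitin and proteasome loci numbered 7, with a median of 0.10, none separated in either direction and none at an unadjusted p under 0.05. Their examples were ENSSSCG00000022559 (USP14, a ubiquitin protease of the proteasome) with 9.28 ± 2.64 and 6.75 ± 0.545 FPKM, ENSSSCG00000016235 (a ubiquitin ligase partner) with 6.41 ± 1.32 and 6.95 ± 0.440 FPKM, and ENSSSCG00000027274 (a proteasome core subunit) with 0.423 ± 0.179 and 0.571 ± 0.101 FPKM.

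Kinases and phosphatases numbered 25, of which 22 had positive and 3 had negative log2 fold changes (79.2% positive over all tested loci), with a median of 0.08, below the 0.15 of all tested loci. ENSSSCG00000024356, a protein kinase, read 27.9, 23.0 and 21.4 FPKM in normal and 24.3, 44.1 and 38.8 FPKM in IUGR livers, with IUGR 1 among the normal values. ENSSSCG00000029555, a phosphatase, and ENSSSCG00000022488, an inhibitor of the cAMP-dependent kinase, overlapped as well, the latter with 1.24 FPKM in IUGR 2 against 0.0919 to 0.464 FPKM elsewhere.

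Immune loci were few and low. ENSSSCG00000027795, described as an adapter that interacts with the lymphocyte kinase LCK, read 0.102, 0.558 and 0.271 FPKM in normal and 0.630, 0.923 and 0.581 FPKM in IUGR livers, without overlap (adjusted p = 0.630). The 4 cytokine, cytokine receptor and chemokine loci had means of at most 1.98 FPKM, none separated the groups, and none had an unadjusted p under 0.05. The chemokine ENSSSCG00000020892 read 0.418, 1.19 and 0.934 FPKM in normal and 1.26, 2.37 and 1.03 FPKM in IUGR livers. The cytokine receptor ENSSSCG00000021925 and the cytokine ENSSSCG00000029692 had means of 1.90 ± 0.566 against 2.07 ± 0.215 FPKM and 0.583 ± 0.0101 against 0.518 ± 0.111 FPKM (SD, n = 3). Summed T and NK cell markers overlapped between the groups at 22.6 to 36.0 and 24.3 to 32.4 FPKM. The sorting nexin ENSSSCG00000021346, placed among these by the word cytokinesis and among the lipid loci by its lipid-binding term, had 0.502 ± 0.291 and 0.632 ± 0.132 FPKM. The 2 receptor loci were ENSSSCG00000014742, an olfactory receptor at 0.0527 to 0.344 and 0.236 to 0.597 FPKM, and ENSSSCG00000026820, with neuropeptide signaling terms, at 8.81 to 17.0 and 11.5 to 14.5 FPKM. The remaining 409 loci had no such term, and their median log2 fold change was 0.12. At an unadjusted p under 0.05, 20 were higher and 7 lower in IUGR (6% and 0.794% of all tested loci). These counts include ENSSSCG00000024041, which met the level limit through IUGR livers only, and ENSSSCG00000014916, which met it through normal livers only.

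Some loci were measured in part of the pigs only. A locus was listed at 0 in at least 1 liver and reached 1 FPKM in another at 18 of the 565 loci, a share of 3.19% (exact binomial 95% interval 1.90% to 4.99%, which covers counting error only), against 1.02% of all tested loci, 2.15% of loci without a symbol on chromosomes, 0.611% of loci with a symbol on chromosomes and 0.146% of loci with a symbol on scaffolds. The 95% interval takes the loci as independent, although those with failed estimates on JH118638.1 share a stretch and failed together in IUGR 1. Leaving out loci with a failed estimate, the shares were 2.32% here, 0.803% over all tested loci and 2.12% for loci without a symbol on chromosomes. With a status of OK throughout, only ENSSSCG00000014916 and ENSSSCG00000024041 were at 0 in all pigs of a group. The zeros of the other loci fell in both groups. ENSSSCG00000026336, with DNA-binding ATPase terms, read 6.54 FPKM in Normal 2 and 1.46 FPKM in IUGR 1 but at most 0.0462 FPKM in the other livers. ENSSSCG00000022063, a protein kinase, was at 0 in IUGR 2 and read 2.004 to 6.49 FPKM in the others. ENSSSCG00000025716, a DNA-binding protein, was at 0 in Normal 1 and IUGR 1 and read 0.521 to 2.95 FPKM in the others.

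An uneven pair stood side by side on GL894445.1. ENSSSCG00000027716 (11389 to 14825) read 1.54, 0.501 and 3.02 FPKM in normal and 2.30, 0 and 1.41 FPKM in IUGR livers, and ENSSSCG00000030622 (14887 to 23165) read 0, 0.677 and 0.691 FPKM in normal and 3.03, 0.505 and 1.41 FPKM in IUGR livers. The pigs at 0 differed between these neighbours. A range over all pigs of more than 2 on the log2(FPKM + 1) scale was found at 19 loci (3.36%, against 2.18% of all tested loci), among them ENSSSCG00000021006, named here after its values were seen, with 15.03, 2.87 and 41.4 FPKM in normal and 18.1, 61.2 and 42.6 FPKM in IUGR livers.

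Loci that share an identifier or a scaffold are not independent. The 565 loci carried 566 distinct identifiers. Of the loci, 14 joined more than 1 gene, and 28 had an identifier that also stood on another locus, in every case on a scaffold. Of the 50 symbols found through the reference, 11 also named another locus. DHX9, an RNA helicase, averaged 11.04 FPKM on its scaffold locus ENSSSCG00000026806 and 0.338 FPKM on chromosome 9, and USP14 averaged 8.01 FPKM on its scaffold and 0.375 FPKM on chromosome 6. Such copies may share reads, and their levels are uncertain. Over 96 pairs of adjacent loci of the set on the same scaffold, the log2 fold changes correlated with a Pearson's r of 0.24 and had the same sign in 55 pairs. For the 77 pairs in different intervals the r was 0.06, with the same sign in 42. These values describe pairs that share scaffolds and libraries and carry no test.

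The libraries also differed in the share of reads that mapped, which was higher in Normal 1, IUGR 2 and IUGR 3 than in Normal 2, Normal 3 and IUGR 1. In the same model for that split, 45 of the 565 loci were called higher with the higher ratio (7.96%, against 7.5% of all tested loci) and 1 lower (0.177%, against 0.143%), far more than between IUGR and normal. With growth as a further factor, 3 loci were called higher (0.531%, against 0.407% of all tested loci) and none lower (against 0.0407%). The median log2 difference for the split was 0.29 over the 565 loci and 0.32 over all tested loci. Within the libraries of higher ratio, ENSSSCG00000025801 read 123 FPKM in Normal 1 against 1.58 and 1.35 FPKM in IUGR 2 and IUGR 3. In those of lower ratio it read 203 and 253 FPKM in Normal 2 and Normal 3 against 23.7 FPKM in IUGR 1. Each comparison has only 1 pig in a group, so growth and the share of mapped reads cannot be told apart by it. ENSSSCG00000014916 was at 0 in the IUGR livers of both classes, and it was not called with that share as a covariate.

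At the edge of the level that defined the set, the lowest loci inside were ENSSSCG00000028068, ENSSSCG00000029124 and ENSSSCG00000030264, with means of 0.305, 0.309 and 0.309 FPKM. The highest outside were ENSSSCG00000025185, ENSSSCG00000023381 and ENSSSCG00000024738, with means of 0.297, 0.295 and 0.294 FPKM. ENSSSCG00000029124 was listed at 0 in Normal 1, IUGR 2 and IUGR 3 and read 0.360 to 0.823 FPKM in the other livers.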

How the data were processed

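The authors sequenced poly(A)-selected liver RNA of 3 normal and 3 IUGR pigs. Per the labels, reads were aligned to Sscrofa10.2 with TopHat2 2.0.14 and Bowtie2 2.0.6, transcripts were assembled with Cufflinks 2.2.1, and levels were computed with Cuffdiff 2.1.1. The authors deposited these levels as FPKM, in 1 table with a status for each estimate and without read counts, so the depth behind a single value is unknown. The study's edgeR 3.2 test needs counts and was not used here. The table's columns include annotation (identifier, description, gene ontology), and no strand or exon structure was used.

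Levels were compared as log2(FPKM + 1), a scale that understates changes of low loci, with limma 3.58.1 in R 4.3.3 (lmFit, eBayes with a trend, two-sided), over 14727 loci with an Ensembl identifier and a mean of at least 0.3 FPKM. P-values were adjusted by Benjamini-Hochberg over all of them, and loci at an adjusted p under 0.05 were called. The p-values set each difference against the spread between these pigs, which the model draws toward the spread of loci of similar level. On simulated data for this comparison with 14727 loci, the model called 16 of 100 loci changed by 1 on the log2 scale. It called 79 of 100 loci changed by 2, and 2 unchanged loci. The changed loci were drawn only from loci with a mean log2(FPKM + 1) of at least 2, so lower loci were not among them. The counts were not split further by level or by class of locus. The scaffold loci without a symbol had a median of 2.89 FPKM, against 5.03 FPKM over all tested loci. How often the model would call changed or unchanged loci of this set was therefore not tested.

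The set of loci, the groups by description and the marker lists were chosen with earlier results of these data known. Named are the called loci, the 10 lowest p-values in each direction, the 10 highest means, up to 4 loci of the lowest p per description group, loci with a failed estimate, the 3 on each side of the level limit, and the 10 highest among loci listed at 0 in some liver. Others are marked as named after their values were seen, or are neighbours on a scaffold or loci that share an annotation or identifier with a named locus. A few others illustrate gene names and copies. Symbols were added from a gene name list (50 identifiers matched). A replicate block was tried as an alternative only, since the numbers do not pair the pigs. Sequences of the loci were not used here. Tables were handled with Python 3.11.15, pandas 2.3.3 and numpy 2.4.6, and figures were drawn with matplotlib 3.10.9.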

Additional observations from a re-analysis of the deposited data

How the results depend on the processing

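Over 18 alternatives, 366 of 420 fold changes of 24 named loci kept their direction and their side of the threshold. Of the rest, 31 passed it, 15 no longer did, and 8 changed sign. Loci that stayed uncalled count as kept, and only 3 loci were called in the main fit. The 15 belong to the 2 loci called lower. Of 17 alternatives other than the replicate block, 10 called ENSSSCG00000014916 and 9 called ENSSSCG00000025801. All 8 changes of sign belong to the loci on JH118638.1 with a failed estimate in IUGR 1. Without IUGR 1, or with failed values set to missing (chosen after seeing the data), their log2 fold changes were 0.137 (ENSSSCG00000028470), 0.0503 (ENSSSCG00000025520), and 0.0213 and 0.295 (both loci of ENSSSCG00000028581), and over all pigs left out in turn they reached down to -1.96, -1.84, -0.868 and -1.03. The count of scaffold loci called higher in IUGR was 3 with a pseudocount of 0.1, 5 with robust variances, 2 with status OK only, 3 with IUGR 2 and 3 averaged, 2 with failed values missing, and 1 to 4 when each pig was left out. The count called lower was 1 with a pseudocount of 0.1, and 0 to 4 when each pig was left out, with 0 without Normal 3. It was 0 in limma with no filter (11 at an unadjusted p under 0.05), with median scaling (26), with quantile scaling (32), with no variance trend (6), with robust variances (6), and at an adjusted p under 0.01 with a log2 fold change of at least 2. With a replicate block, 9 were called higher and 6 lower, but normal and IUGR pigs of the same number deviated with r of -0.22, -0.07 and -0.17 across loci, and the labels do not pair them. The cause of these shifts was not tested. Without counts, the precision of a low FPKM, and of a 0, is unknown.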
